A study of Mus musculus with 56 samples.

Results

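The day-fed comparison of ZT20 with ZT8 set 4 mice sampled at ZT20 against 4 mice sampled at ZT8, which are 8 of the 56 mice of the series. Its members were taken by regimen and time point, with earlier results of these data known. All mice were female C57BL/6J, a standard inbred strain, 9 weeks old and group housed, with no transgene or mutant allele named in the labels, under 12 h of light and 12 h of dark. Zeitgeber time (ZT) counts hours from lights on. The 8 mice had been under daytime-restricted feeding (DRF) for 7 days, with food from ZT0 to ZT12. A DRF mouse at ZT20 was therefore in the dark phase, 8 h after the food was taken away, and a DRF mouse at ZT8 was in the light phase, 8 h after it was given. In this comparison the light phase and the feeding state changed together, so their parts cannot be told apart within DRF. The 4 mice at ZT20 and 4 at ZT8 under nighttime-restricted feeding (NRF), with food from ZT12 to ZT24, were in the opposite feeding state at the same clock times and are used below only for contrast. Each library was the RNA of 1 dissected anterior hypothalamus.

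The anterior hypothalamus holds the suprachiasmatic nucleus, the master clock that light sets, next to cell groups that serve body temperature, water balance and hormone release. In the clock, CLOCK and BMAL1 drive the Per, Cry and Nr1d1 repressors and output genes such as Dbp, which then rise and fall once a day. Feeding time is known to shift clocks in liver and other peripheral tissues more readily than the light-set clock. Fasting is known to raise glucocorticoids, ketone bodies and the use of fat, and body temperature follows activity and food intake.

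Values are counts per 1000000 normalized reads (CPM), recovered from the deposited scores. Tests used limma on log2(CPM + 1), and log2 differences are ZT20 minus ZT8 on that scale. The normalized library size was 30023880 to 31096603 reads over the 8 mice. Per-mouse values are listed from replicate 1 to replicate 4. Of the 8 libraries, 2 stood apart. ZT20 replicate 2 lay at one end of the first principal component, which held 39.2% of the variance. Its summed level of 7 arcuate and lateral hypothalamic markers, such as Agrp, Pomc and Hcrt, was 132 CPM against 618 to 1041 CPM in the other ZT20 mice. Its 5 thalamic markers summed to 279 CPM against 130 to 168 CPM. ZT8 replicate 1 lay at one end of the second component, with 23.4% of the variance, and had the highest sums of blood markers (779 CPM) and microglial markers (435 CPM). The markers of the anterior hypothalamus were present in all 8 mice, at summed levels of 524 to 1017 CPM at ZT20 and 661 to 898 CPM at ZT8. The lowest were the libraries that stood apart: ZT20 replicate 2 was at 524 CPM against 861 to 1017 CPM, and ZT8 replicate 1 at 661 CPM against 733 to 898 CPM. Their striatal markers were the highest of their time point, at 351 CPM against 140 to 198 CPM and 395 CPM against 136 to 245 CPM. Of the 13 anterior markers, 8 had a positive difference over all 8 mice. All 13 did without ZT20 replicate 2, and 6 did without ZT8 replicate 1. In a dissected tissue, fewer cells of a type and less RNA per cell cannot be told apart.

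Of 14710 genes tested, 8 passed an adjusted p of 0.05 between ZT20 and ZT8 in DRF, which is 0.0544% of all genes. Mt2, Pnpla7, Mfsd2a, Gjb6 and Cyp2j9 were higher at ZT20 (0.034% of genes), and Dbp, Nr1d1 and Rbm3 were lower (0.0204%). An unadjusted p under 0.05 was reached by 917 genes (6.23%), 517 in the higher direction (3.51%) and 400 in the lower direction (2.72%). The 4 ZT20 mice lay wholly above the 4 ZT8 mice in 339 genes (2.3%) and wholly below them in 279 genes (1.9%). Leaving out 1 mouse at a time moved the count of 8 to between 0 and 8. It was 0 without ZT8 replicate 4, where limma gave 649 of 14710 genes at an unadjusted p under 0.05. That is below the share of 0.05 that chance alone would give, and the 6.23% over all 8 mice is little above it. The count was 1 without ZT8 replicate 1 or replicate 2, and 3 without ZT8 replicate 3 or ZT20 replicate 3. It was 5 without ZT20 replicate 1 or replicate 2, and 8 without ZT20 replicate 4. Dbp was called in 7 of these 8 fits, Pnpla7 in 5, Nr1d1 and Mfsd2a in 3, Rbm3 in 2, Mt2 in 1, and Gjb6 and Cyp2j9 in 0. Their log2 differences kept their sign in all of these fits. In the GENCODE annotation of GRCm38 Dbp lies at chr7:45705088-45710203, Nr1d1 at chr11:98767932-98775333, Rbm3 at chrX:8138975-8145880, Mfsd2a at chr4:122946850-122961188, Gjb6 at chr14:57123303-57133611 and Cyp2j9 at chr4:96568429-96591578, all protein-coding genes. When all 28 DRF mice shared one estimate of the spread, 48 genes passed for the same contrast, 38 higher and 10 lower, and they held all 8.

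**Figure D1:**
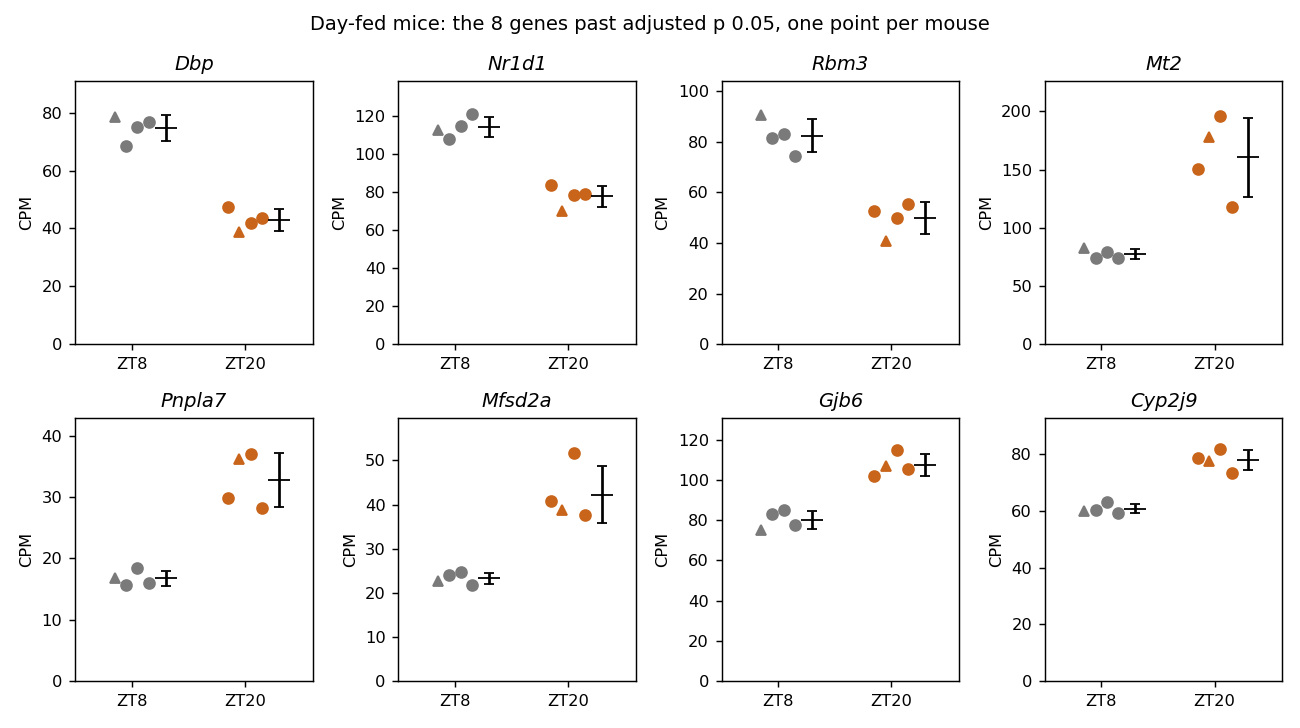
CPM of the 8 genes past adjusted p 0.05 in the 4 DRF mice at ZT8 (grey) and the 4 at ZT20 (orange), 1 point per mouse, with the mean and SD in black. Triangles mark ZT20 replicate 2 and ZT8 replicate 1, the libraries that stood apart. In each panel the mice of the 2 time points do not overlap.

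Dbp, a transcription factor of the PAR bZIP family and a direct output of the clock, had the smallest p-value of all genes. It was at 47.5, 38.7, 41.7 and 43.6 CPM in the ZT20 mice and at 78.6, 68.4, 74.9 and 76.8 CPM in the ZT8 mice. Every ZT20 mouse was below every ZT8 mouse. The mean was 42.9 ± 3.68 CPM (SD, n = 4) against 74.7 ± 4.47 CPM, a log2 difference of −0.79 ± 0.07 (SE; limma adjusted p = 0.00568). Without ZT8 replicate 4 the adjusted p was 0.0586. Over the 7 DRF time points, Dbp was highest at ZT12 (77.2 ± 5.78 CPM) and lowest at ZT24 (42.2 ± 3.16 CPM), so ZT8 and ZT20 lay close to its highest and lowest levels. Nr1d1, the nuclear receptor REV-ERBα that represses Arntl, was at 83.6, 70.2, 78.6 and 79.2 CPM at ZT20 and 113, 108, 115 and 121 CPM at ZT8. It fell by 0.55 ± 0.06 on the log2 scale (adjusted p = 0.0166), and the groups did not overlap. Dbp values include reads that the counting shared between genes. The length behind the Nr1d1 values was taken from the annotation and not checked, and Nr1d1 shares its locus with Thra on the other strand while the strand setting of the counting is not given in the sources used here.

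No other clock gene passed between these time points in DRF. Among 10 repressors, Nr1d1 passed the test, 1 gene was higher and 4 were lower at an unadjusted p under 0.05 (against 3.51% and 2.72% of all genes), and the median log2 difference was −0.08, beside a median near 0 over all genes. Per1 was at 60.1, 60.5, 65.5 and 63.4 CPM at ZT20 and 58.4, 50.4, 68.6 and 68.4 CPM at ZT8, with overlapping mice (log2 difference 0.03 ± 0.09, adjusted p = 0.973). Per2 was at 37.4 ± 1.87 against 36.4 ± 4.74 CPM (adjusted p = 0.953). Per3 was at 61.9 ± 5.52 against 71.0 ± 5.19 CPM and Ciart, a repressor of CLOCK and BMAL1, at 12.1 ± 1.22 against 14.9 ± 1.86 CPM. Neither passed (adjusted p = 0.723 and 0.69). Nr1d2, the close relative of Nr1d1, was at 134 ± 6.56 against 146 ± 13.2 CPM (adjusted p = 0.864). Of 6 activators, 5 had a positive difference and 0 passed. Arntl, which encodes BMAL1, was at 31.6, 33.7, 32.1 and 33.0 CPM at ZT20 and 26.7, 28.3, 30.5 and 27.9 CPM at ZT8. Its mice did not overlap, but its adjusted p was 0.544. Clock was at 101 ± 13.7 against 92.2 ± 9.11 CPM (adjusted p = 0.901). Of 16 genes of the suprachiasmatic nucleus, 3 were higher at an unadjusted p under 0.05, against 3.51% of all genes, and 0 passed. Avp, a neuropeptide of that nucleus and of neurosecretory cells, ranged from 83.2 to 215 CPM at ZT20 and from 99.2 to 194 CPM at ZT8, a spread larger than the difference between the times.

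Dbp and Nr1d1 fell at ZT20 under both regimens, and further in NRF. Dbp was at 38.6 ± 2.82 CPM at ZT20 and 92.1 ± 4.28 CPM at ZT8 in NRF, a log2 difference of −1.24. The day-fed difference was smaller in size by 0.45 (limma, adjusted p of the difference between regimens = 0.0241). Nr1d1 had a night-fed difference of −0.96, and its day-fed difference was smaller in size by 0.41 (adjusted p = 0.0174). Over 28 alternatives the adjusted p of the difference between regimens was 0.00222 to 0.0801 for Dbp, which no longer passed in 7 of them, 5 of which left out 1 mouse (DRF ZT8 replicate 2, DRF ZT20 replicate 4, NRF ZT8 replicate 2 or 4, NRF ZT20 replicate 2). For Nr1d1 it was 0.00217 to 0.062 and no longer passed in 1, the deposited scores. For Per1, with −0.28 in NRF, the difference between regimens did not pass (adjusted p = 0.195).

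**Figure D2:**
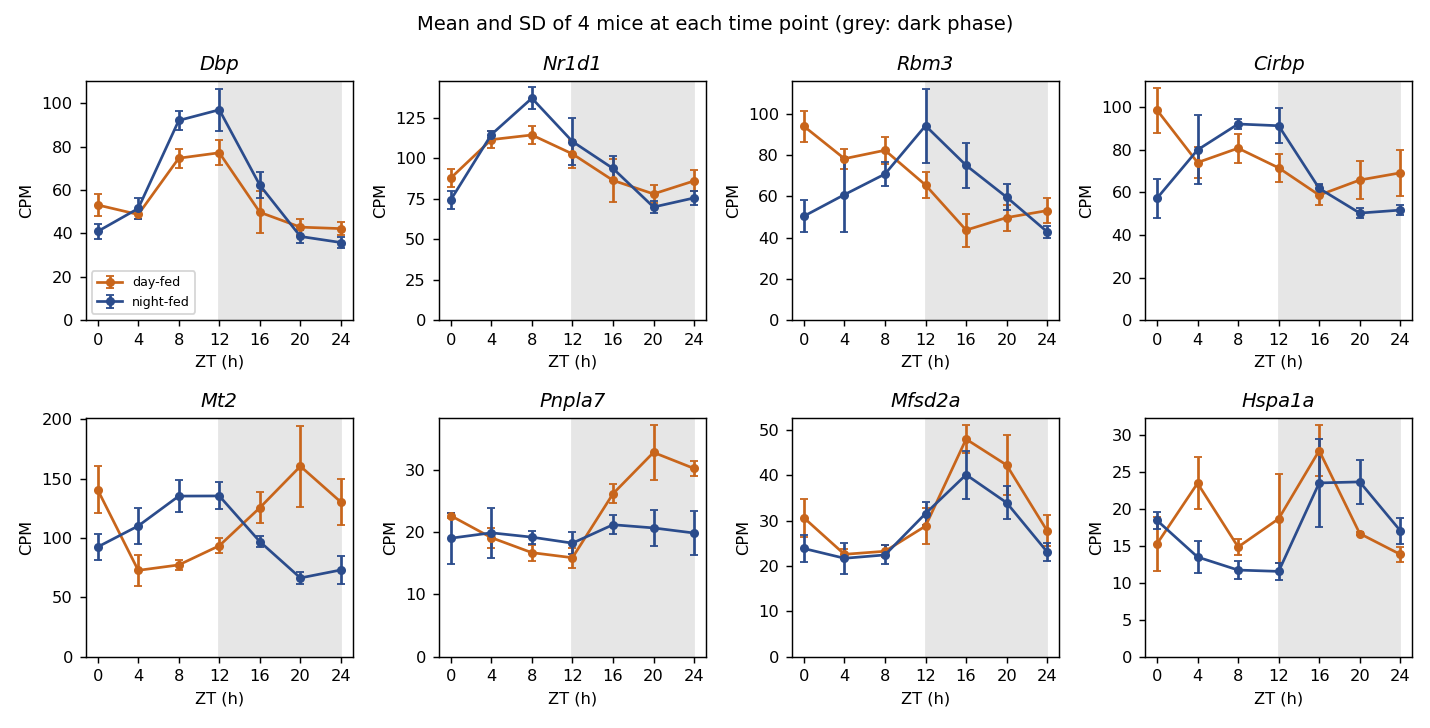
Mean CPM (SD, n = 4 mice) of 8 genes at the 7 time points in DRF (orange) and NRF (blue), with the dark phase in grey. Dbp and Nr1d1 are lower at ZT20 than at ZT8 in both regimens, Mt2 is higher at ZT20 in DRF and lower in NRF, and Pnpla7 is higher at ZT20 in DRF and close to its ZT8 level in NRF.

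Rbm3 and Cirbp encode RNA-binding proteins that are induced by mild cold. Rbm3 was at 52.6, 41.0, 49.8 and 55.6 CPM at ZT20 and 90.4, 81.6, 83.1 and 74.5 CPM at ZT8, with the 2 groups well apart. It fell by 0.72 ± 0.09 on the log2 scale (adjusted p = 0.0302). Its lowest DRF level was at ZT16 (43.7 ± 8.04 CPM) and its highest at ZT0 (94.1 ± 7.52 CPM). Cirbp was at 75.2, 53.8, 66.4 and 68.0 CPM at ZT20 and 90.5, 80.5, 76.6 and 75.5 CPM at ZT8. The highest ZT20 mouse came just under the lowest ZT8 mouse, and the difference of −0.30 ± 0.10 did not pass (adjusted p = 0.645). In NRF the order of the pair was the other way round in size, with −0.86 for Cirbp and −0.25 for Rbm3. The regimens differed for Cirbp (adjusted p = 0.0191) and did not pass for Rbm3 (adjusted p = 0.0746).

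The 19 cytosolic heat-shock genes, chaperones and cochaperones of the heat-shock response, were all slightly higher at ZT20 in DRF, with a median log2 difference of 0.16 and 0 calls. An unadjusted p under 0.05 was reached by 10 of them, against 3.51% of all genes. All 19 stayed positive with median-of-ratios size factors, quantile normalization and library trends removed, and without ZT20 replicate 2 or ZT8 replicate 1, with medians of 0.15 to 0.19. Hsph1, a nucleotide exchange factor for HSP70, was at 430.3, 438, 413 and 409 CPM at ZT20 and 313, 377, 353 and 339.6 CPM at ZT8, without overlap (log2 difference 0.29, adjusted p = 0.196). Hspa1a, the inducible HSP70, was at 16.7, 16.7, 16.9 and 16.3 CPM and 16.3, 14.5, 14.1 and 14.3 CPM, and its ranges overlapped at ZT8 replicate 1 (log2 difference 0.16, adjusted p = 0.759). Hspa1a and Hspa1b are near-identical copies, so the reads of one can be counted for the other. In NRF all 19 were called higher at ZT20, against 17.7% of all genes, with a median of 0.48 and with 0.95 for Hspa1a. The difference between regimens passed for 10 of the 19, which is to be read beside 1.26% of all genes, and for Hspa1a it was −0.79 (adjusted p = 0.00435). The 18 chaperones of the endoplasmic reticulum had a day-fed median of 0.09, with 17 positive and 0 called, while 15 were called higher in NRF, against 17.7% of all genes.

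Mt2 and Mt1 encode metallothioneins, small proteins that bind zinc and copper and are induced by metals and by glucocorticoids. Both genes lie next to each other on chromosome 8, Mt2 at chr8:94172664-94173568. Their promoters are shown because Mt2 was called in opposite directions in the 2 regimens. Mt1 also changed sign, but did not pass in DRF. The windows run from 250 bases before to 50 bases after the RefSeq start, which for Mt2 is base 94172618, upstream of the start in the GENCODE annotation that gives the gene coordinates (GRCm38.p6, plus strand, chr8:94172368-94172667 for Mt2 and chr8:94178839-94179138 for Mt1). Capitals mark the core of the metal response element, TGCGCNC or TGCACNC, on either strand.
Mt2: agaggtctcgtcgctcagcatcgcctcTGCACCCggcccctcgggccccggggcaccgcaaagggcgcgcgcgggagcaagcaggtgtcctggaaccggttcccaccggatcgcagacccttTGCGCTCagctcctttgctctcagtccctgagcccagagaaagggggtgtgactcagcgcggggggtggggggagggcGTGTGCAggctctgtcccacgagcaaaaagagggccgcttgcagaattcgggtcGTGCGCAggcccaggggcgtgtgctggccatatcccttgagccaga
Mt1: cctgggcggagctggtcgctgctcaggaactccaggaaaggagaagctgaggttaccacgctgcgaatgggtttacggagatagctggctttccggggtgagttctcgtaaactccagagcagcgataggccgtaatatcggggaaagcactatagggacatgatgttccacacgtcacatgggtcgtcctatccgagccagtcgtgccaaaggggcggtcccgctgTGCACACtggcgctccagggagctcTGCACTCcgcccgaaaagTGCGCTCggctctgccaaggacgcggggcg
The Mt2 window holds 4 such matches and the Mt1 window 3. Over all 32851 promoter windows of this length, 15.4% hold TGCGCNC and 12.6% hold TGCACNC. The glucocorticoid half-site AGAACA, which 19.0% of windows hold, is in neither window.

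Mt2 was at 151, 178, 196 and 118 CPM at ZT20 and 82.4, 73.7, 79.4 and 74.0 CPM at ZT8. Each ZT20 mouse was above each ZT8 mouse, and the ZT20 mice varied more. The mean rose from 77.4 ± 4.25 to 161 ± 34.1 CPM (SD, n = 4), a log2 difference of 1.02 ± 0.13 (adjusted p = 0.0302). The call was kept without ZT20 replicate 4, the lowest of its group, and lost in the 7 other fits that left out a mouse, where the adjusted p reached 0.15. It was also lost with no filter on low values, on the deposited scores, with a replicate block, and with library trends with GC, length and level removed (adjusted p = 0.0567). Mt1 was at 271, 300.3, 321 and 208 CPM at ZT20 and 252, 186, 191 and 186 CPM at ZT8. The groups overlapped at ZT8 replicate 1, and the difference of 0.42 ± 0.14 did not pass (adjusted p = 0.648). Mt3, the metallothionein of brain, had a log2 difference of 0.09 (adjusted p = 0.939). In NRF, Mt2 went the other way, from 135 ± 13.2 CPM at ZT8 to 66.4 ± 5.17 CPM at ZT20, a log2 difference of −1.01. The difference between regimens was 2.03 (adjusted p = 7.02e-06). Mt1 followed, at −0.54 in NRF (adjusted p of the difference between regimens = 0.0136). At the time points well inside the hours with food (ZT4 and ZT8 in DRF, ZT16 and ZT20 in NRF), the mean of Mt2 was 72.8 ± 13.1, 77.4 ± 4.25, 97.0 ± 4.80 and 66.4 ± 5.17 CPM. At the same hours of the other regimen it was 110.3 ± 15.1, 135 ± 13.2, 126 ± 13.3 and 161 ± 34.1 CPM. The ZT8 and ZT20 groups among these are those already compared above, and ZT0, ZT12 and ZT24 were left out. The part of feeding in these levels was not tested.

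Pnpla7, a lysophospholipase of the endoplasmic reticulum and lipid droplets that breaks down lysophosphatidylcholine, rose most clearly among the lipid genes. It was at 29.8, 36.1, 37.0 and 28.3 CPM at ZT20 and 16.7, 15.7, 18.5 and 15.9 CPM at ZT8. The lowest ZT20 mouse was far above the highest ZT8 mouse. The mean was 1.96-fold higher, with a log2 difference of 0.93 ± 0.10 (adjusted p = 0.0119). The gene lies at chr2:24976033-25054057. Its promoter window (chr2:24975783-24976082, plus strand, GRCm38.p6) is shown because it alone among the 7 called genes with a window holds the E-box CACGTG, the site of CLOCK and BMAL1, marked in capitals.
Pnpla7: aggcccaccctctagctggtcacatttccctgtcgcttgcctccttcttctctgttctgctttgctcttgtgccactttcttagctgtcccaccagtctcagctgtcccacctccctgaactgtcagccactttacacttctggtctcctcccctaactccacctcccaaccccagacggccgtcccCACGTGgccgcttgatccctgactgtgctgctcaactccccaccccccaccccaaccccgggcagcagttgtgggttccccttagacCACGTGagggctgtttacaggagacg
It holds 2 E-boxes, and 7.15% of all windows hold at least 1. Only the 300 bases of each window were searched, so E-boxes elsewhere in Dbp, Nr1d1 or the other called genes would not be seen. In NRF, Pnpla7 was at 20.7 ± 2.87 CPM at ZT20 and 19.2 ± 1.07 CPM at ZT8 (log2 difference 0.09, adjusted p = 0.437), and the regimens differed by 0.83 (adjusted p = 0.00816). Within DRF the lowest mean was at ZT12 (15.9 ± 1.59 CPM) and the highest at ZT20.

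Mfsd2a, the transporter that carries lysophosphatidylcholine with omega-3 fatty acids across the blood-brain barrier, was at 40.9, 38.7, 51.8 and 37.5 CPM at ZT20 and 22.6, 24, 24.6 and 21.7 CPM at ZT8. The groups lay well apart (log2 difference 0.82 ± 0.10, adjusted p = 0.0176). In NRF it also rose, by 0.57, and the regimens did not differ past the threshold (adjusted p = 0.382). Cyp2j9, a cytochrome P450 of the family that acts on arachidonic acid, was at 78.8, 77.7, 81.8 and 73.5 CPM and 60.1, 60.5, 63.1 and 59.3 CPM (log2 difference 0.35 ± 0.05, adjusted p = 0.043), and its near relatives could share reads. It rose by 0.17 in NRF (adjusted p = 0.0416). Plcd4, a phospholipase C, came just short of the threshold, at 36.5, 42.5, 39.5 and 36.1 CPM and 27.0, 25.6, 28.7 and 28.8 CPM (log2 difference 0.47, adjusted p = 0.0526 over 8 mice and 3.79e-05 over 28). Acot11, an acyl-CoA thioesterase, was at 93.4 ± 8.83 against 66.6 ± 3.87 CPM (log2 difference 0.48, adjusted p = 0.0779 over 8 and 0.00115 over 28). Plcd4 and Acot11 were also called higher in NRF, by 0.34 and 0.31. The regimens did not differ past the threshold for them (adjusted p = 0.456 and 0.418).

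Gjb6, which encodes connexin 30 of astrocyte gap junctions, was at 102, 107, 115 and 105 CPM at ZT20 and 75.0, 82.8, 85.0 and 77.7 CPM at ZT8. It rose by 0.42 ± 0.06 (adjusted p = 0.043) in DRF and by 0.37 in NRF. Glul, glutamine synthetase and a mark of astrocytes, was at 1544, 1812, 1899.6 and 1589 CPM and 1309, 1139, 1298 and 1209 CPM, without overlap (log2 difference 0.46 ± 0.08, adjusted p = 0.119 over 8 and 0.00222 over 28). Among 17 astrocyte markers, 5 were higher and 1 was lower at an unadjusted p under 0.05 (against 3.51% and 2.72% of all genes), and 11 had a positive difference. Their summed level was 7584 to 8373 CPM at ZT20 and 6979 to 7356 CPM at ZT8, so the groups did not overlap, and none of the 17 was at 0. Without Glul the sums were 6041 to 6561 CPM and 5770 to 6047 CPM, which overlapped. Fabp7, another marker of astrocytes and their precursors, went the other way, at 15.3 ± 1.34 against 23.0 ± 4.17 CPM (log2 difference −0.54, adjusted p = 0.219). The part of astrocyte content in the rise of Gjb6 was not tested. The summed markers of the other cell types and neighbouring regions overlapped between the times.

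Several genes of fat and amino acid use passed only when all 28 DRF mice shared the estimate of the spread. Plin4, a coat protein of lipid droplets, had the largest of these differences. It was at 15.0, 26.2, 40.4 and 11.7 CPM at ZT20 and 2.06, 2.24, 8.94 and 3.52 CPM at ZT8. The mice of a time point varied widely, but the groups did not overlap (log2 difference 2.25 ± 0.42, adjusted p = 0.148 over 8 mice and 0.000366 over 28). Angptl4, an inhibitor of lipoprotein lipase, was at 6.34, 9.02, 6.90 and 6.18 CPM and 4.80, 3.01, 3.61 and 3.36 CPM (log2 difference 0.79, adjusted p = 0.00312 over 28). Of the whole list of 26 genes of ketone and fatty acid oxidation, 4 were higher and 1 was lower at an unadjusted p under 0.05 (against 3.51% and 2.72% of all genes), and the median was 0.02. Pdk4, the kinase that holds back pyruvate oxidation, was at 8.91 ± 1.52 against 6.56 ± 0.376 CPM (adjusted p = 0.518 over 8). In NRF, where ZT20 mice had food, Plin4, Angptl4 and Pdk4 were also called higher at ZT20, by 1.05, 0.47 and 0.33. The difference between regimens did not pass for them (limma, adjusted p = 0.244, 0.403 and 0.906). Of the list of 26, NRF called 5 higher and 6 lower, against 17.7% and 16.1% of all genes.

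**Figure D3:**
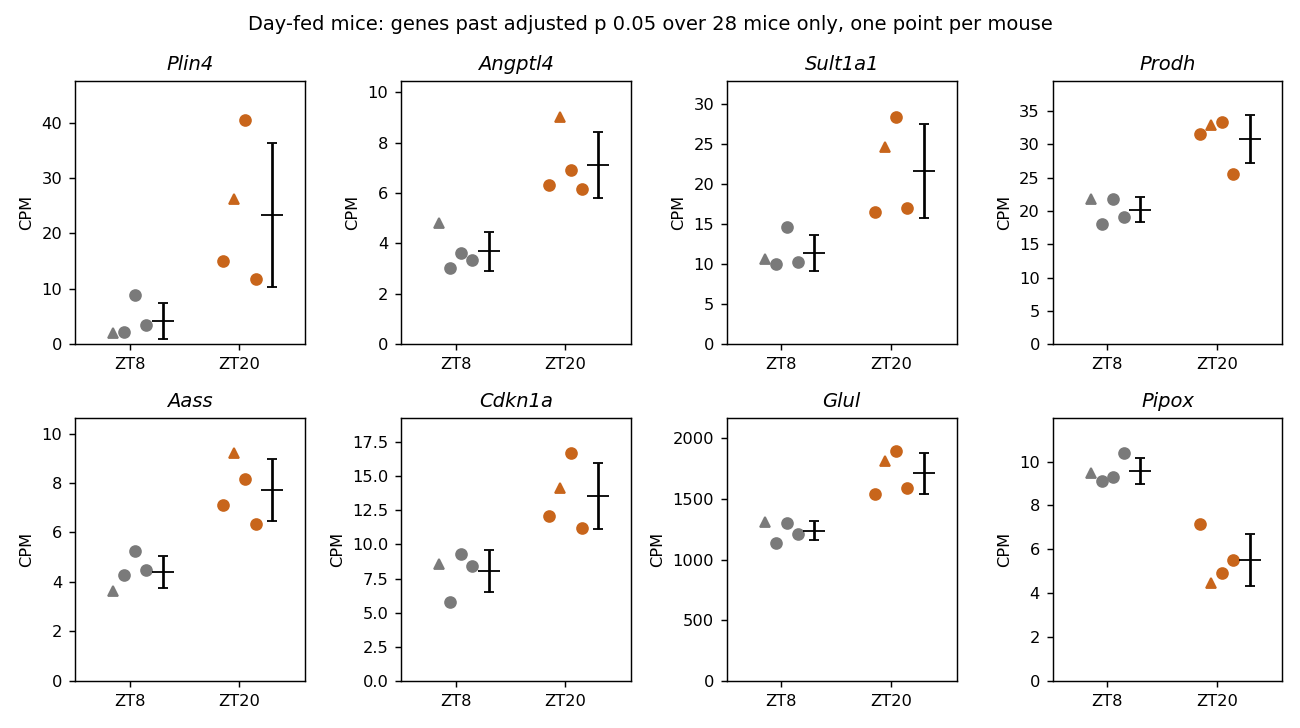
CPM of 8 genes of lipid and amino acid use, growth arrest and sulfation in the DRF mice at ZT8 (grey) and ZT20 (orange), 1 point per mouse, with the mean and SD in black and the 2 libraries that stood apart as triangles. None of the 8 passed over the 8 mice and all passed over the 28 DRF mice. They were picked from the 48 genes that passed over 28 mice, after their values were seen. The groups do not overlap in any panel, which held for all 48, so it is no separate support. Over all genes, 2.3% lay wholly higher and 1.9% wholly lower.

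Among 40 genes of amino acid degradation, 9 were higher and 1 was lower at an unadjusted p under 0.05, against 3.51% and 2.72% of all genes, and the median was 0.02. Prodh, proline dehydrogenase, was at 31.6, 33.0, 33.3 and 25.6 CPM at ZT20 and 21.8, 18.0, 21.8 and 19.1 CPM at ZT8, without overlap (log2 difference 0.58 ± 0.10, adjusted p = 0.107 over 8 mice and 0.000911 over 28). Its night-fed difference was 0.08 (adjusted p = 0.204), and the regimens differed (adjusted p = 0.0263). That adjusted p was 0.00706 to 0.0749 over 29 alternatives and no longer passed in 11, of which 10 left out 1 of the 16 mice. Aass, the first enzyme of lysine breakdown by way of saccharopine, was at 7.11, 9.22, 8.16 and 6.34 CPM and 3.63, 4.28, 5.23 and 4.47 CPM (adjusted p = 0.00312 over 28). Gpt2, the mitochondrial alanine aminotransferase, was at 60.3 ± 1.63 against 47.9 ± 4.16 CPM (adjusted p = 0.0225 over 28). Aass and Gpt2 were also called higher in NRF, by 0.36 and 0.31. The regimens did not differ past the threshold for them (adjusted p = 0.343 and 0.935). Pipox, which oxidizes pipecolic acid and sarcosine, was the one that was lower, at 7.17, 4.46, 4.91 and 5.53 CPM and 9.46, 9.10, 9.31 and 10.4 CPM (log2 difference −0.71 ± 0.12, adjusted p = 0.107 over 8 and 3.79e-05 over 28). It was lower at ZT20 in NRF too (−0.41, adjusted p = 0.00292).

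Of 20 glucocorticoid targets, 18 had a positive difference, 9 were higher and 0 were lower at an unadjusted p under 0.05 (against 3.51% and 2.72% of all genes), and the median was 0.22, beside a median near 0 over all genes. Without ZT20 replicate 2, 16 were positive, 7 were higher, 1 was lower and the median was 0.18. Without ZT8 replicate 1, 17 were positive, 8 were higher, 1 was lower and the median was 0.21. Over all 8 mice Mt2 was the one past the threshold. Over 28 mice 5 passed, beside 48 of all genes tested. The largest difference on the list, 2.25, was that of Plin4, given above with the genes of fat use. Cdkn1a, the cell cycle inhibitor p21, was at 12.1, 14.1, 16.7 and 11.2 CPM and 8.56, 5.80, 9.31 and 8.45 CPM (adjusted p = 0.042 over 28). Sult1a1, a sulfotransferase, was at 16.4, 24.6, 28.4 and 17.0 CPM and 10.7, 9.97, 14.7 and 10.2 CPM (adjusted p = 0.0162 over 28). Fkbp5, the cochaperone of the glucocorticoid receptor and a common read-out of it, was at 27.9, 36.0, 32.5 and 25.4 CPM and 22.2, 22.0, 29.9 and 20.9 CPM, overlapping at ZT8 replicate 3 (log2 difference 0.35, adjusted p = 0.717). Sgk1, a kinase that responds to steroids, ranged from 34.7 to 74.7 CPM at ZT20 and from 34.4 to 72.6 CPM at ZT8, so its mice covered the same range. The night-fed median of the list was 0.12, with 8 genes called higher and 3 lower, against 17.7% and 16.1% of all genes. Fam107a, an actin-associated stress gene that is on no list and was named for its small p-value, was at 382, 605, 481 and 380.0 CPM and 238, 203, 292 and 245 CPM (log2 difference 0.90, adjusted p = 0.107 over 8 and 0.00146 over 28). Its highest value was in ZT20 replicate 2, a library that stood apart. In NRF it was also called higher, by 0.60, and the regimens did not differ past the threshold (adjusted p = 0.474).

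Of 18 immediate early genes, which follow neuronal activity within minutes, 16 had a positive difference and 7 were higher at an unadjusted p under 0.05, against 3.51% of all genes. The median was 0.26 and 0 passed, and without ZT20 replicate 2 the median was 0.16. Fos was at 12.2, 13.4, 17.9 and 15.0 CPM at ZT20 and 4.06, 6.09, 6.33 and 9.82 CPM at ZT8, without overlap (log2 difference 1.09 ± 0.20, adjusted p = 0.134). Fosl2, of the same family, was at 13.6, 13.7, 16.5 and 15.9 CPM and 8.26, 9.62, 11.6 and 10.8 CPM (adjusted p = 0.18). Egr1 was at 28.8, 68.3, 62.8 and 46.5 CPM and 31.3, 24.5, 30.8 and 34.5 CPM, with ZT20 replicate 1 inside the ZT8 range (adjusted p = 0.653). In NRF, Fos was at 12.7 ± 3.94 against 12.8 ± 7.40 CPM, and the difference between regimens did not pass (adjusted p = 0.336).

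Of 21 genes of insulin signalling and FOXO, 20 had a positive difference, 7 were higher at an unadjusted p under 0.05 (3.51% of all genes) and the median was 0.12. The largest difference on this list, 0.69, was that of Cdkn1a, given above with the glucocorticoid targets. Txnip, which slows glucose uptake, was at 23.2, 35.4, 29.5 and 30.6 CPM and 18.2, 18.6, 25.1 and 26.4 CPM and overlapped (log2 difference 0.41, adjusted p = 0.69). Of 22 feeding peptides and receptors, 0 reached an unadjusted p under 0.05, against 6.23% of all genes, and the median was −0.13. Without ZT20 replicate 2 that median was 0.04, and without ZT8 replicate 1 it was −0.20, with 2 lower at an unadjusted p under 0.05. Agrp, the peptide of hunger neurons in the arcuate nucleus, was at 7.69, 1.56, 2.95 and 3.20 CPM and 3.20, 6.41, 4.31 and 4.11 CPM, with its lowest value in ZT20 replicate 2, the library low in arcuate markers (adjusted p = 0.914). The 19 neuroendocrine peptides and receptors also gave 0 at that threshold. Of 10 genes of the thyroid hormone axis, Hr, a nuclear corepressor that thyroid hormone induces, passed over 28 mice, at 69.0, 48.7, 86.3 and 57.6 CPM and 33.6, 40.9, 40.5 and 38.0 CPM (adjusted p = 0.0232). Its night-fed difference was −0.01, and the difference between regimens came close to the threshold (adjusted p = 0.0539).

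**Figure D4:**
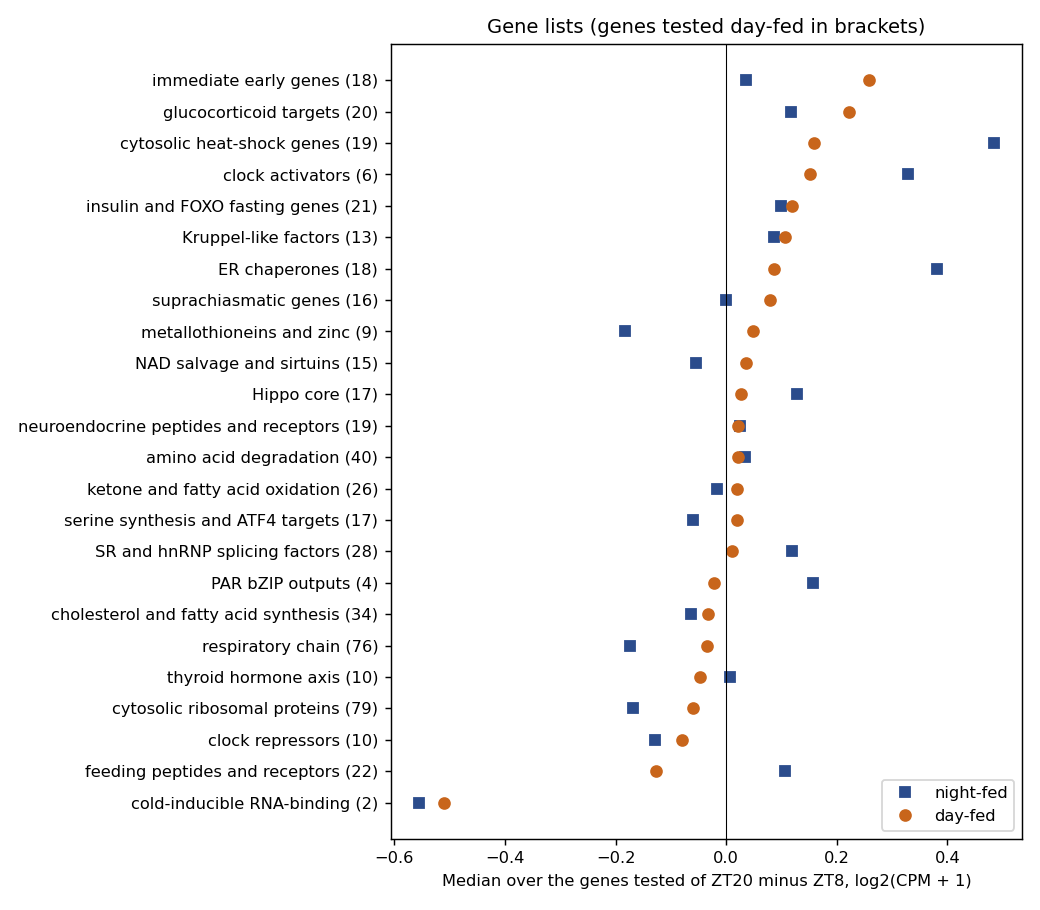
Median log2 difference (ZT20 minus ZT8) over the tested genes of each of 24 lists in DRF (orange circles) and NRF (blue squares). The day-fed medians of the heat-shock and endoplasmic reticulum lists are 0.16 and 0.09 against 0.48 and 0.38 in NRF, and the immediate early and glucocorticoid lists have the highest day-fed medians, 0.26 and 0.22.

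Other gene classes gave 0 calls over the 8 mice. Of 76 subunits of the respiratory chain, 58 had a negative difference, with a median of −0.03 and 0 at an unadjusted p under 0.05 (6.23% of all genes), whereas 51 were called lower in NRF (16.1% of all genes) with a median of −0.17. Without ZT8 replicate 1 the day-fed median of the respiratory chain was 0.01, with 46 of 76 positive. Of 79 cytosolic ribosomal proteins, 73 had a negative difference, with a median of −0.06 and 1 at an unadjusted p under 0.05, against 46 called lower in NRF. Without ZT8 replicate 1 the ribosomal median was −0.02, with 52 negative. The 34 genes of cholesterol and fatty acid synthesis had a median of −0.03, with 1 higher and 1 lower at an unadjusted p under 0.05, and without ZT20 replicate 2 the median was 0.02. At an unadjusted p under 0.05, 0 of 13 Kruppel-like factors passed, 1 of 15 genes of NAD salvage and sirtuins was higher, and 1 of 17 Hippo genes was lower. Of 17 genes of serine synthesis and ATF4, 4 were higher and 1 was lower, with a median of 0.02. Of 28 splicing factors, 6 were higher and 2 were lower, against 3.51% and 2.72% of all genes. Their median was 0.01, and it was −0.02 without ZT20 replicate 2 or without ZT8 replicate 1. Of the splicing factors, Hnrnpc passed over 28 mice, at 270.0, 287, 262 and 262 CPM and 215, 241, 218 and 219 CPM (adjusted p = 0.0191). Of the other genes with the smallest p-values, none passed over the 8 mice, and some passed over 28. Stab2, a scavenger receptor, was at 2.99 ± 0.922 against 0.978 ± 0.267 CPM (adjusted p = 0.107 over 8 and 0.000366 over 28). On the lower side, Hmgb3, a chromatin protein, was at 40.9, 40.6, 40.8 and 40.6 CPM and 49.1, 49.1, 48.4 and 49.3 CPM (log2 difference −0.26, adjusted p = 0.107 over 8 and 0.0162 over 28). Its SDs of 0.134 and 0.412 CPM were smaller than read sampling alone would give at this level. They are therefore no measure of how alike the mice were. Lfng, a glycosyltransferase that modifies Notch, was at 27.5 ± 0.897 against 36.1 ± 2.60 CPM and the receptor Gpr146 at 22.0 ± 1.71 against 29.1 ± 1.02 CPM (adjusted p = 0.107 for both over 8, and 0.132 for Lfng and 0.00262 for Gpr146 over 28). Cdc42ep4, an effector of the GTPase Cdc42, the GTPase Rhoq and the anion exchanger Slc26a7 completed the 10 with the smallest p on that side. Their log2 differences were −0.42, −0.24 and −0.47, and their adjusted p-values were 0.156 to 0.157 over 8 mice. Over 28 mice the adjusted p-values were 0.00243, 0.365 and 0.926.

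Set beside NRF, the day-fed contrast called far fewer genes. NRF called 4966 of 14706 genes (33.8%) between the same clock times, 2597 higher (17.7%) and 2369 lower (16.1%). No mouse was shared between the comparisons. The median absolute log2 difference was 0.06 in DRF and 0.12 in NRF, while the median SD between mice of a group was 0.11 in DRF and 0.08 in NRF. Without ZT20 replicate 2 the day-fed SD was 0.10. Over 14635 genes the differences correlated between the regimens at Pearson's r = 0.342 and Spearman's rho = 0.427, given as a description since genes share libraries and are not independent. Of the night-fed calls, 80.7% had the same sign in DRF, against 67.4% of all genes. Genes called higher in NRF had a median difference of 0.23 there and 0.07 in DRF, and genes called lower had −0.23 and −0.06. These genes were chosen by their night-fed p-values, which enlarges their night-fed medians. Smaller day-fed medians are therefore no separate result. Of the 8 day-fed calls, 6 were called in the same direction in NRF, Mt2 was called in the opposite direction and Pnpla7 was not called.

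**Figure D5:**
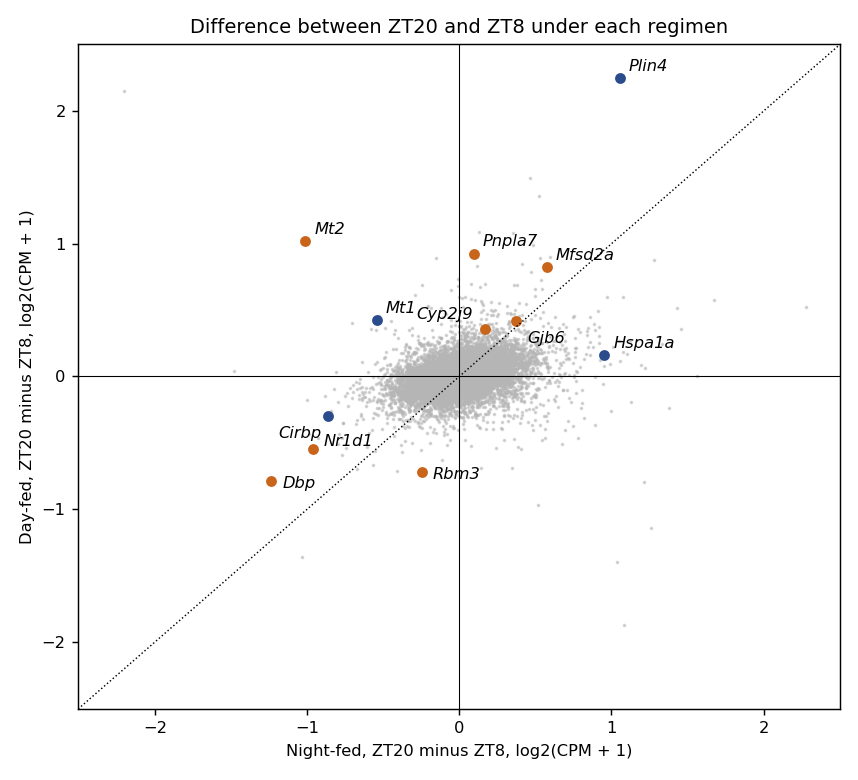
Log2 difference (ZT20 minus ZT8, log2(CPM + 1)) of each gene in NRF (horizontal) and DRF (vertical), with the line of equal differences dotted. Orange points passed in DRF and blue points are other genes named in the text. Mt2 and Mt1 lie in the upper left, Pnpla7 near the vertical axis, and Hspa1a near the horizontal axis.

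The difference between the regimens passed for 185 of 14725 genes (1.26%). It was negative, with the day-fed difference below the night-fed one, for 118 (0.801%), and positive for 67 (0.455%). Of these 185, 181 were also called in NRF, against 33.8% of all genes, and 4 were called in DRF, against 0.0544%. The signs were opposite for 96, while 67.4% of all genes had the same sign. The test of the difference used the same mice as these calls, and the SD was smaller in NRF, so these counts are no separate result. The 4 called in DRF were Mt2, Pnpla7, Dbp and Nr1d1. Mt2, Ahsa2, Zcchc7, H1f0 and Tra2a were among the genes with the smallest p-values. Ahsa2, a relative of the HSP90 activator Ahsa1, had a difference of 0.03 in DRF and rose by 0.78 in NRF (adjusted p of the difference = 0.000796). Tra2a, a splicing regulator, and Zcchc7, of the nuclear RNA decay machinery, had day-fed differences of 0.16 and −0.05 and rose by 0.70 and 0.48 in NRF (adjusted p of the difference = 0.00398 and 0.00147). H1f0, a linker histone, had 0.14 in DRF and −0.50 in NRF (adjusted p of the difference = 0.00171). Leaving out 1 mouse at a time moved the 185 to between 85 and 916. It was 916 without DRF ZT20 replicate 2 and 594 without DRF ZT8 replicate 1, the 2 libraries that stood apart, and both fits kept all 185. It fell to 106, 114 and 120 without DRF ZT8 replicate 2, 3 and 4, to 94 and 118 without DRF ZT20 replicate 3 and 4, to 86 and 99 without NRF ZT8 replicate 2 and 4, and to 102 and 85 without NRF ZT20 replicate 1 and 2.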

How the data were processed

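Poly(A) RNA of 1 anterior hypothalamus per mouse was sequenced in paired-end reads on the BGISEQ-500. By the study's methods, reads filtered by the authors in SOAPnuke were mapped to GRCm38.p6 with HISAT2 and to a set of coding genes with Bowtie2, RSEM gave the counts per gene, and edgeR's TMM set the normalization. The deposited values are called TPM by the authors but are a compressed score: log2(CPM + 1) over gene length, then scaled so that each mouse has about the same total. Undoing these steps gave CPM. Steps of genes with few reads deviated from this form by a median of 2.07e-08 (relative). Of 17564 genes, 15350 resolved into whole reads, 1910 into hundredths of a read, 261 used an unchecked annotated length and 43 were left out. Among genes called whole, 99.9% of values lay within 0.05 reads of a whole number. Symbols came from RefSeq by NCBI Gene ID, and 93 IDs had none. All per-sample columns were used for the recovery.

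Genes with a mean CPM of at least 0.5 were tested with limma 3.58.1 (R 4.3.3; lmFit, eBayes with trend) on log2(CPM + 1), with Benjamini-Hochberg adjustment and a threshold of 0.05, over 8 mice per regimen or 16 for the difference between regimens. All genes entered the adjustment. The fit was tested on simulated data. The rule for named genes took 12 calls in each direction, or, since 8 passed, the 10 smallest p-values in each direction, then clock, stress, metabolic and peptide genes of the lists, and the 6 smallest p-values for the difference. Some of the genes so taken are not reported here. Genes that passed over 28 mice, list members with small p-values and promoters shown were named after their values were seen. The members and lists were chosen with earlier results of these data known. Replicates are separate mice. No 2 libraries of a group agreed within sampling noise. Alternatives are given at the end.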

Additional observations from a re-analysis of the deposited data

Results flagged for a closer look

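The difference between ZT20 and ZT8 differed between the regimens, by limma's test of the difference itself, for 11 of the 50 genes examined. Day-fed minus night-fed, it was 2.03 on the log2 scale for Mt2, 0.83 for Pnpla7, 0.51 for Prodh, 0.45 for Dbp, 0.41 for Nr1d1, 0.56 for Cirbp and 0.64 for H1f0. It was −0.79 for Hspa1a, −0.74 for Ahsa2, −0.53 for Zcchc7 and −0.54 for Tra2a. Of all genes, 1.26% passed this test. Mt2, Ahsa2, Zcchc7, H1f0 and Tra2a were among the genes taken for their small p-values in the same test. Their passing was therefore fixed in advance, and the 11 of 50 is no separate result.

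In 6 of the 100 groups of 4 mice examined, 1 mouse lay apart from the other 3, and chance gives about 1 in 20. All were in the ZT8 group. Fkbp5 was at 29.9 CPM in replicate 3, Sult1a1 at 14.7 CPM in replicate 3 and Gpt2 at 54.2 CPM in replicate 3. Hspa1a was at 16.3 CPM in replicate 1, Ahsa2 at 52.0 CPM in replicate 2 and Hnrnpc at 241 CPM in replicate 2.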

How the results depend on the processing

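The day-fed count of 8 was 8 with log2(CPM + 0.25), log2(CPM + 4) and median-of-ratios size factors, and 9 with a minimum mean CPM of 5, quantile normalization and library trends with GC, length and level removed, which kept 7 of the 8 and lost Mt2. It was 4 with no filter, 4 with limma's voom on whole reads, 1 (Dbp) on the deposited scores, 48 over the 28 DRF mice and 89 over all 56. Leaving out 1 mouse gave 0 to 8. Alternatives chosen after seeing the data gave 69 without the DRF ZT16 mice in the 28-mouse fit and 11 with library trends removed and without ZT20 replicate 2. Why the count moved was not tested. The night-fed count of 4966 was 3249 over all 56 mice and 3937 to 4618 without 1 mouse. The difference between regimens, 185 genes, was 367 with library trends removed and 85 to 916 without 1 mouse. After seeing the data it was 480 without DRF ZT16 in the fit over all mice and 1015 with library trends removed and without DRF ZT20 replicate 2.

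Groups share replicate numbers, but the labels do not say that a number marks a litter, batch or day, and same-numbered DRF mice deviated together with correlations of −0.16, −0.32, 0.16 and 0.19, where 1 of 4 correlated best with its own number. With the replicate block the day-fed count was 1 (Dbp), the night-fed count 4483 and the difference between regimens 174.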
